A study of Homo sapiens with 6 samples.

Results

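The genes described here are the pore-forming and auxiliary subunits of potassium channels and of voltage-gated sodium and calcium channels that had reads in HEK293, an established line of human embryonic kidney cells. They were taken from the deposited gene table by symbol: names with the KCN stem of potassium channels, SCN names ending in A or B, and CACN names of the A, B and G families. Of the 159 rows that matched, 24 were antisense or other non-coding transcripts named after a channel gene and were left out. A row had to hold at least 10 counts in 3 or more cultures, which 66 of the remaining 135 rows did, out of 26485 rows in the table. The rule used the count level of all cultures together, and 1 gene, *KCNA2*, met it through the control group alone. RNA-seq was performed on polyA RNA of 6 HEK293 cultures in 2 groups. The knockdown group held 3 cultures transiently transfected with a Smart Silencer, a pool of small interfering RNAs with antisense oligonucleotides, against the long noncoding RNA *HSALNG0134318*. The control group held 3 cultures with the genotype WT, described as NC, which was taken to mean negative control. What the controls were transfected with is not given in the sources used here, so a response to transfection and a response to the silencing cannot be told apart. The silenced transcript has no row in the table, so the labels could not be checked against it.

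Potassium channels let potassium leave the cell and so set the resting membrane potential and end action potentials. Voltage-gated sodium channels carry the fast upstroke of the action potential, and voltage-gated calcium channels turn a depolarisation into calcium entry. In each family a pore-forming subunit makes the ion pathway, and auxiliary subunits set its traffic to the surface and its gating. HEK293 cells are not excitable and are widely used as a host for cloned channels, for which the channels they make themselves are the background.

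The libraries held 13900965 to 15583535 counts in the knockdown group and 14732648 to 16869948 in the control group. The 66 channel genes took 0.0572% to 0.0613% of these counts in the knockdown group and 0.0581% to 0.0641% in the control group. Markers of HEK293 were detected for 9 of 9 genes, with *VIM*, *KRT8* and *NEFL* the most abundant. Their summed counts were 21595 to 29576 in the knockdown group and 19669 to 26499 in the control group. Of the neuron list (*RBFOX3*, *SNAP25*, *SYT1*, *SYP*), 4 of 4 genes were detected, with sums of 189 to 228 and 162 to 289. No marker of podocytes, endothelium, leukocytes or hepatocytes reached 10 counts in any culture, and *CD3E* was at 0 in all of them. The muscle list had 2 of 5 genes detected and summed to 546 to 632 in the knockdown and 381 to 481 in the control group, where *RYR2* held most of the counts and *MYH7*, *MYH2* and *TNNT2* had at most 5. The proximal tubule list had 2 of 3 genes detected and summed to 577 to 651 and 778 to 1149, almost all of it *LRP2*, with *SLC34A1* at 0 to 2. The fibroblast list had 2 of 3 genes detected and summed to 598 to 774 and 668 to 724. By edgeR's quasi-likelihood test, used below, *RYR2* was higher in the knockdown group (log2 fold change 0.75, adjusted p = 0.014). By the same test *LRP2* was lower (-0.70, adjusted p = 0.012). The part of the muscle and tubule lists in the channel results was not tested.

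Fewer than 1 in 2 channel rows reached the count minimum in HEK293. Of the 135 channel rows, 69 were under the count minimum, 9 of them at 0 in all 6 cultures. The highest total of any row under the minimum was 53 counts over the 6 cultures. Calcium channel β subunits, which bind the pore subunit inside the cell, passed with 4 of 4 rows. The α2δ subunits, which sit outside the membrane, passed with 3 of 4 rows. Among voltage-gated potassium (Kv) pore subunits 21 of 40 rows passed, among inward rectifiers 7 of 16, and among 2-pore-domain (K2P) leak channels 4 of 15. Sodium channel pore subunits passed with 5 of 10 rows and sodium channel β subunits with 3 of 4. The totals of the 66 genes ran from 53 to 8885 counts over the 6 cultures.

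Levels were compared between genes as RPKM, the normalized reads per kilobase of the union of exons with library size scaled out. The union counts exons of all annotated transcripts, so genes with many of them, such as *KCNMA1* with 39437 bases, are placed low. *CACNA2D1*, the α2δ subunit that is the binding site of gabapentin, had the highest mean level, 10.8, with cultures from 8.80 to 13.2. *KCNK1*, the K2P channel TWIK1, followed at 8.58, and its range of 7.24 to 9.74 overlapped that of *CACNA2D1*. Both stood clear of all other channel genes. *SCN9A*, the sodium channel Nav1.7 of pain-sensing neurons, came next at 3.84 (2.67 to 4.65). *CACNB3*, a calcium channel β subunit, had a level of 3.78 (3.19 to 4.65). *KCNS3*, a Kv subunit that is silent alone and modifies Kv2 channels, had 3.56 (2.89 to 4.22), and *KCNMB4*, a β subunit of the large-conductance calcium-activated potassium (BK) channel, had 3.32 (2.90 to 4.21). These ranges overlapped, so the differences among these 4 genes were within the spread between cultures. A level of 1 or more was reached by 25 of the 66 genes. At the low end, *KCND3* (Kv4.3) had a level of 0.0304 and *KCNA2* (Kv1.2) one of 0.0447. By this measure *KCNMB4* had a higher level than the BK pore gene *KCNMA1*, which had 0.0825 (0.0542 to 0.110), with no overlap between the 2 ranges. The exon union of *KCNMB4* was 4860 bases. With annotated transcript lengths of 4717 bases for *KCNMB4* and 6261 for *KCNMA1* the gap would be smaller, so its size depends on the length used. Total counts over the 6 cultures were 1466 for *KCNMB4* and 291 for *KCNMA1*.

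**Figure D1:**
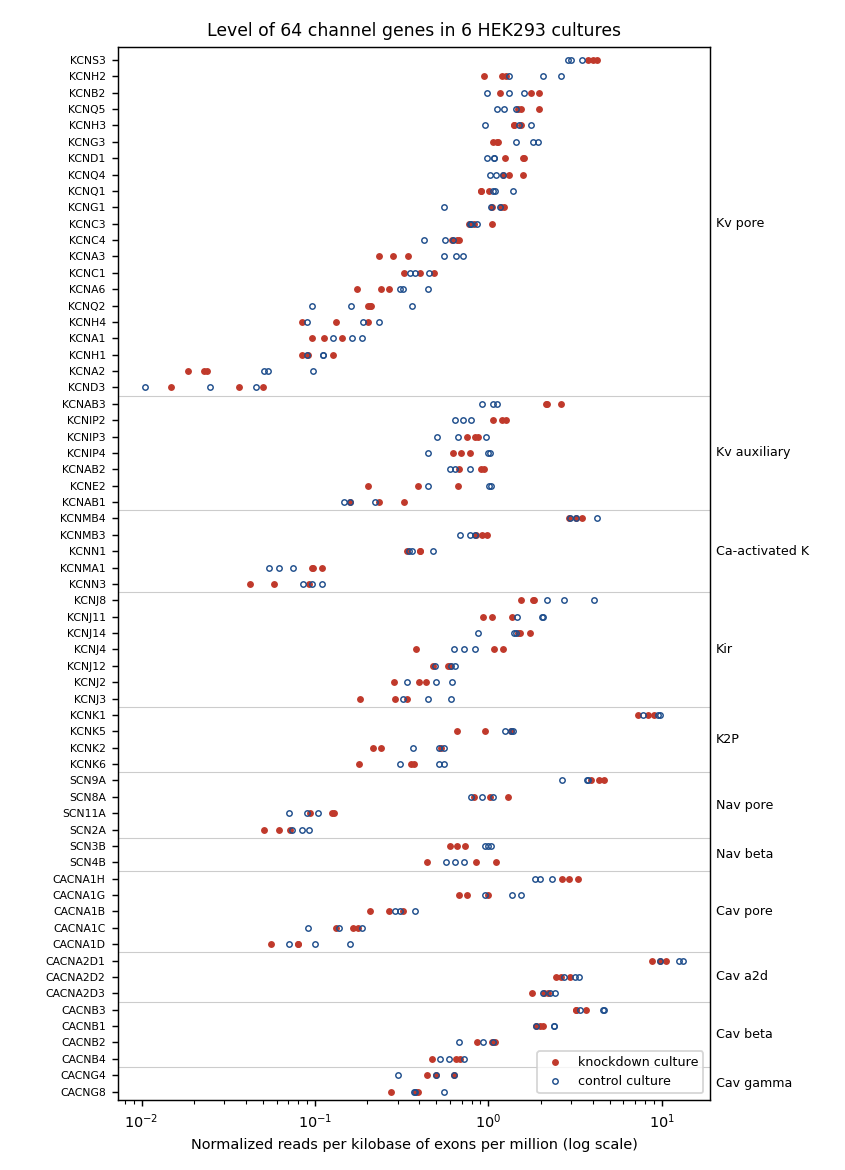
Each point is the level of a channel gene (64 are drawn) in a culture, as RPKM on a log scale, with genes grouped by role and sorted by mean level. Filled points are knockdown cultures and open points control cultures. *CACNA2D1* at 10.8 and *KCNK1* at 8.58 lie to the right of all other genes, and *KCND3* and *KCNA2* lie below 0.1.

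The comparison of the study asks what changes when *HSALNG0134318* is silenced. With edgeR's quasi-likelihood test over 14877 genes and a threshold of 0.05 on the adjusted p, 6 of the 66 channel genes were lower and 2 higher in the knockdown group. Those lower included the Kv pore genes *KCNA2*, *KCNA3* and *KCNH2*, the inward rectifier *KCNJ11*, and the sodium channel β gene *SCN3B*. The Kv β subunit *KCNAB3* and the T-type calcium channel *CACNA1H* were higher. Over all genes tested, 4.64% were lower, 5.40% were higher and 10% passed in either direction. Without *KCNA2*, which had to differ to enter the list, 5 of 65 channel genes were lower and 2 higher. The 10.8% called without it and the 12.1% called with it are close to the share of all genes, so the number of calls is not particular to channel genes. Likewise 22 channel genes, or 33.3%, had no overlap between the knockdown and control values, against 32.2% of all genes. The median log2 fold change was -0.09 for the channel genes, 38 of which were below 0 and 28 above, and -0.02 for all genes. The median size of the log2 fold change was 0.33 against 0.20, and the median standard error was 0.23 against 0.14. At an unadjusted p under 0.05 from edgeR there were 20 of the 66 channel genes, against 3996 of all 14877 genes tested. In bulk RNA, fewer cells of a type and less RNA per cell cannot be told apart.

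The number of calls depended on single cultures. Without knockdown replicate 1, 2 or 3 or control replicate 1, the called channel genes were 2 each time, *KCNA3* and *KCNAB3*. Over all genes those fits called 615, 536, 517 and 677 genes in place of 1494. Leaving out control replicate 2 gave 5 lower and 2 higher channel genes and 2509 calls over all genes. Leaving out control replicate 3 gave 8 lower and 1 higher channel gene and 2098 calls over all genes. Of the 8 called genes, *KCNA3* and *KCNAB3* passed in each of the 14 alternative fits, and the other 6 lost their call when certain cultures were left out. The largest adjusted p from edgeR was 0.048 for *KCNA3*, without knockdown replicate 1, which is just under the threshold. For *KCNAB3* it was 0.022, without knockdown replicate 3.

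**Figure D2:**
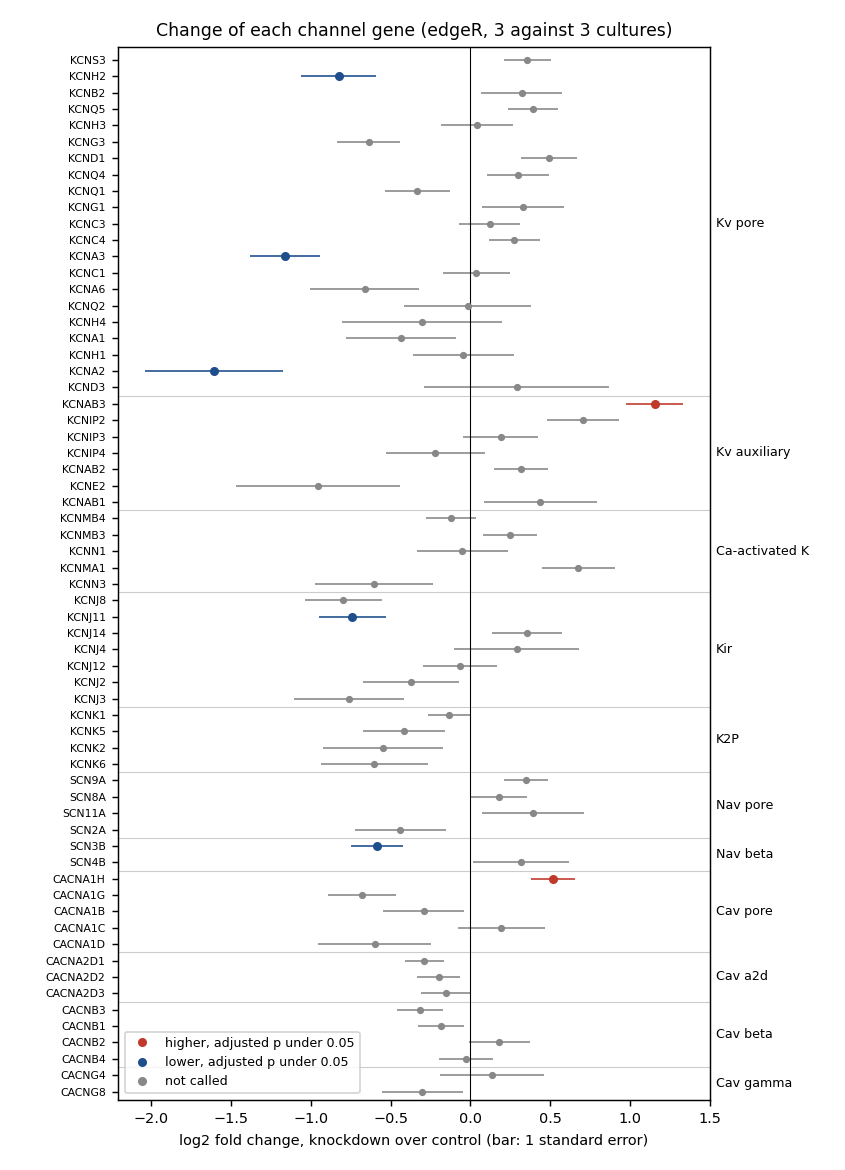
Points give the log2 fold change of the knockdown over the control group for each of 64 channel genes, and bars give 1 standard error from edgeR (3 against 3 cultures). The 5 genes called lower are blue, the 2 called higher are red and the others grey. The blue points run from -1.61 for *KCNA2* to -0.58 for *SCN3B*, and the red points are *KCNAB3* at 1.16 and *CACNA1H* at 0.52.

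Kv pore subunits form the delayed rectifier and A-type currents. *KCNA3* encodes Kv1.3, best known for holding the membrane potential of T lymphocytes. It had 35.7, 52.2 and 42.9 normalized counts in knockdown replicates 1, 2 and 3, and 109, 99.1 and 84.4 in control replicates 1, 2 and 3. Each knockdown culture was below each control culture. The mean fell from 97.5 ± 12.5 to 43.6 ± 8.27 normalized counts (SD, n = 3 cultures each), or -1.16 on the log2 scale with a standard error of 0.22 (edgeR's quasi-likelihood test, adjusted p = 0.0079). *KCNA2* encodes Kv1.2, an axonal channel that limits firing. It had 6.75, 5.22 and 6.44 normalized counts in the knockdown cultures and 27.6, 15.2 and 14.4 in the control cultures, without overlap. Its log2 fold change was -1.61 (standard error 0.43, edgeR's adjusted p = 0.038). No knockdown culture reached 10 counts for *KCNA2*, so that it entered the list only through the control group and had to differ. It was not called without knockdown replicate 1, 2 or 3 (adjusted p of 0.11, 0.14 and 0.12 from edgeR) or without control replicate 1 (0.13).

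The 2 genes are neighbours on chromosome 1 (GRCh38, GENCODE release 44). *KCNA2* spans chr1:110519837-110631474 and *KCNA3* spans chr1:110653560-110674940, both on the minus strand with 22085 bases between them. The Kv1 gene on the other side of *KCNA2*, *KCNA10*, had 0 counts in all cultures. The other pair of neighbouring Kv1 genes above the count minimum lies on chromosome 12. *KCNA5*, 125622 bases from *KCNA1*, was under the minimum and not tested. Its mean was 5.88 normalized counts in the knockdown and 4.85 in the control cultures, with overlapping groups. *KCNA6* (Kv1.6) had 14.5, 10.4 and 16.1 normalized counts in the knockdown and 19.4, 26.8 and 18.5 in the control cultures. *KCNA1* (Kv1.1) had 13.5, 11.5 and 17.2 in the knockdown and 22.4, 15.2 and 19.5 in the control cultures. The *KCNA6* values did not overlap between groups and the *KCNA1* values did, and neither was called, with log2 fold changes of -0.66 and -0.43 (edgeR's adjusted p of 0.24 and 0.46). *KCNA1*, *KCNA3* and *KCNA6*, with *KCNA3* called, thus had negative log2 fold changes under TMM, DESeq2's size factors, library sizes alone and the GC and length correction.

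*KCNH2* encodes hERG, the pore of the cardiac rapid delayed rectifier whose loss prolongs the QT interval. Its normalized counts were 130.1, 102 and 136 in the knockdown cultures and 224, 285 and 143 in the control cultures. The lowest control culture, replicate 3, was just above the highest knockdown culture, replicate 3. The mean fell from 217 ± 71.1 to 123 ± 18.2 (SD, n = 3), or -0.83 on the log2 scale (standard error 0.23, edgeR's adjusted p = 0.046). This call was lost in 7 of 14 alternatives. Among them were each knockdown culture left out (adjusted p of 0.13, 0.18 and 0.11 from edgeR), control replicate 1 left out (0.13), control replicate 2 left out (0.063) and library sizes alone (0.051). Without control replicate 2 the log2 fold change was -0.58. The other 3 genes of the family, *KCNH1*, *KCNH3* and *KCNH4*, had log2 fold changes of -0.04, 0.04 and -0.30 with overlapping groups.

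The promoters of the 3 Kv pore genes called lower are printed to show their base composition. They cover 250 bases before to 50 bases after a start site listed in RefSeq (GRCh38.p14), taken for each gene as the listed start nearest that of the MANE Select transcript, the reference transcript of the gene, and within 500 bases of it. They are written 5′ to 3′ in the gene's direction, with CG dinucleotides in capitals.
*KCNA2*, chr1:110606309-110606608, minus strand: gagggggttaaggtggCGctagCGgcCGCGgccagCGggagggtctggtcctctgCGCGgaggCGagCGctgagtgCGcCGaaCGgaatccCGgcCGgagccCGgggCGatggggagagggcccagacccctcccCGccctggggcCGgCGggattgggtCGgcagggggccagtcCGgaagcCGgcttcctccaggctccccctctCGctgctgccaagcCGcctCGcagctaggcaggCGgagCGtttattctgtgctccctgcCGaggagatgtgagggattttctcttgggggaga
*KCNA3*, chr1:110674891-110675190, minus strand: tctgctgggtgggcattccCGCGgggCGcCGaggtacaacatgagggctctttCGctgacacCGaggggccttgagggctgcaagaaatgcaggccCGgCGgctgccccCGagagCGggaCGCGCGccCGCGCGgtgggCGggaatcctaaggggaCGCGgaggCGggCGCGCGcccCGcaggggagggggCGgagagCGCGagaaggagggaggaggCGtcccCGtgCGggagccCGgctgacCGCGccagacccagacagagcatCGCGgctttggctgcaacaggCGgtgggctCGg
*KCNH2*, chr7:150978272-150978571, minus strand: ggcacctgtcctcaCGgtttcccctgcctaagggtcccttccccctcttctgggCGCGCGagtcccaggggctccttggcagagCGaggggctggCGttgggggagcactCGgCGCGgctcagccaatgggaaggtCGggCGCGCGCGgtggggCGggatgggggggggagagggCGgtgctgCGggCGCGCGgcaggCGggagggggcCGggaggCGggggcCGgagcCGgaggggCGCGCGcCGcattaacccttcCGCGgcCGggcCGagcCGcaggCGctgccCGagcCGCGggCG
The *KCNH2* window had a GC content of 78.3% and 39 CG dinucleotides, that of *KCNA3* 73.7% and 37, and that of *KCNA2* 71.3% and 28. *KCNA2* and *KCNA3* have further listed starts, and which start HEK293 uses was not tested. Such windows were found for 44 of the 66 channel genes, whose median GC content was 72.3%. It was 64.0% over the 14628 genes with a RefSeq window by the same rule, whether or not they had reads in HEK293. The 44 channel genes had all passed the count minimum, so the sets differ in more than being channel genes. The motif GGGCGG, the core of a GC box, was searched on both strands and found in 35 of 44 channel windows (79.5%) and in 62.7% of all windows. TATAAA, searched likewise, was present in 4.55% against 9.37%, and CCAAT in 36.4% against 36.9%. Each of the 3 windows shown held GGGCGG and none held TATAAA. A match is a description of the window and not a bound site.

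Other Kv pore genes were not called. *KCNG3* (Kv6.3), a silent modifier of Kv2 channels, had 62.7, 59.5 and 63.3 normalized counts in the knockdown and 80.6, 107 and 101 in the control cultures. Its groups did not overlap, and its log2 fold change of -0.64 had an adjusted p of 0.062 from edgeR. *KCNG3* was called lower in 1 of 14 alternatives, the GC and length correction (edgeR's adjusted p = 0.028). *KCND1* (Kv4.1, an A-type channel) had 115, 147 and 144 in the knockdown and 99.0, 90.1 and 98.8 in the control cultures, again without overlap, with a log2 fold change of 0.49 (adjusted p = 0.096, edgeR). *KCNS3*, the most abundant Kv pore gene, had 199, 176 and 189 in the knockdown and 163, 141 and 136 in the control cultures, with a log2 fold change of 0.36 (edgeR's adjusted p = 0.15). Of the KCNQ family, which forms the M current and the cardiac slow delayed rectifier, *KCNQ5* had a log2 fold change of 0.39 and *KCNQ1* one of -0.33 (adjusted p of 0.14 and 0.32 from edgeR), both without overlap between groups. *KCNQ1* shares 121 exon bases with *KCNQ1OT1* on the opposite strand, a transcript with a log2 fold change of 0.35 that was not called. Among the 21 Kv pore genes the log2 fold change was below 0 for 10 and above 0 for 11.

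Kv auxiliary subunits change the gating and surface level of Kv pores. *KCNAB3* encodes Kvβ3, a cytoplasmic subunit of Kv1 channels, and spans chr17:7921859-7929856 on the minus strand. It had 149, 151 and 182 normalized counts in the knockdown and 74.5, 64.3 and 78.2 in the control cultures. The lowest knockdown culture was nearly 2-fold above the highest control culture. The mean rose from 72.3 ± 7.22 to 161 ± 18.6 (SD, n = 3), a 2.23-fold difference, or 1.16 on the log2 scale (standard error 0.18, edgeR's adjusted p = 0.0025). Its exons share 252 of 4633 bases with another annotated protein-coding gene on the same strand, ENSG00000262730, which has no row in the table. The other Kvβ genes were not called. *KCNAB2* had 233, 244 and 175 in the knockdown and 166, 156 and 202 in the control cultures (log2 fold change 0.32, edgeR's adjusted p = 0.26), and *KCNAB1* had 16.4, 24.0 and 33.3 in the knockdown and 16.3, 15.2 and 22.6 in the control cultures (0.44, 0.46). Both overlapped between groups. All 3 Kvβ genes had positive log2 fold changes in every alternative fit, and only *KCNAB3* was called in the reported fit.

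The KChIP subunits bind Kv4 pores. *KCNIP2* had 64.6, 54.2 and 61.2 normalized counts in the knockdown and 40.8, 36.6 and 32.9 in the control cultures. The groups did not overlap, and the log2 fold change was 0.71 (edgeR's adjusted p = 0.070). It shares 444 of its 3397 exon bases with *KCNIP2-AS1* on the opposite strand, which had a log2 fold change of -0.09. The paper names a stranded library preparation. The strand setting of the counting is not given in the sources used here, so reads of such pairs may not be separable. *KCNIP3* and *KCNIP4* had log2 fold changes of 0.19 and -0.22 with overlapping groups. *KCNE2*, a single-pass partner of KCNQ1 and hERG, had 10.6, 6.26 and 3.22 in the knockdown and 7.14, 16.1 and 16.5 in the control cultures, with a standard error of 0.51 on the log2 scale, and its groups overlapped. The 7 auxiliary genes summed to 40.4 to 41.1 CPM (counts scaled to library size) in the knockdown and 28.7 to 31.5 in the control cultures. *KCNAB3* and *KCNAB2* held most of that gap.

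Calcium-activated potassium channels couple calcium entry to repolarisation. None of the 5 genes was called. *KCNMA1*, the BK pore, had 57.8, 57.4 and 65.5 normalized counts in the knockdown and 36.7, 32.1 and 44.2 in the control cultures. The groups did not overlap, and the log2 fold change was 0.68 (edgeR's adjusted p = 0.086). Its more abundant β subunit *KCNMB4* had 252, 212 and 234 in the knockdown and 217, 308 and 233 in the control cultures, which overlapped (log2 fold change -0.12, adjusted p = 0.67, edgeR). *KCNMB3* had a log2 fold change of 0.25, but 3403 of its exon bases lie opposite another protein-coding gene of the table. The small-conductance channel genes *KCNN1* and *KCNN3* had log2 fold changes of -0.05 and -0.60.

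Inward rectifiers (Kir) pass potassium near the resting potential, and 2 of them form ATP-sensitive channels with a sulfonylurea receptor. *KCNJ11* encodes Kir6.2, the pore of the ATP-sensitive channel of pancreatic β cells. It had 101, 68.9 and 78.4 normalized counts in the knockdown and 152, 154 and 109 in the control cultures. The highest knockdown culture, replicate 1, lay just under the lowest control culture, replicate 3. The mean fell from 138 ± 25.5 to 82.8 ± 16.6 (SD, n = 3), or -0.74 on the log2 scale (standard error 0.21, edgeR's adjusted p = 0.047). The call was lost without knockdown replicate 1, 2 or 3 (adjusted p of 0.062, 0.20 and 0.17 from edgeR), without control replicate 1 or 2 (0.14 and 0.051), with library sizes alone (0.051) and with limma-voom (0.053). Its receptor gene *ABCC8* (SUR1) lies 3166 bases away on the same strand and was not called (log2 fold change 0.11, edgeR's adjusted p = 0.82).

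*KCNJ8* encodes Kir6.1, the pore of the vascular ATP-sensitive channel, and was the Kir gene with the highest level per kilobase, 2.35. It is named by the study in its own results on these cultures, so it is not an independent pick. It had 57.8, 68.9 and 68.7 normalized counts in the knockdown and 103, 153 and 82.3 in the control cultures. The groups did not overlap, and control replicate 2 stood above the other controls. The log2 fold change was -0.80 (standard error 0.24) and the adjusted p from edgeR was 0.060, which missed the threshold. It passed in 5 of 14 alternatives, namely no filter (edgeR's adjusted p = 0.027), the replicate block (0.048), the DESeq2 Wald test (0.034), without control replicate 3 (0.018) and the GC and length correction (0.024). Without control replicate 2 its log2 fold change was -0.51. The partner gene *ABCC9* (SUR2) had 2 counts over all cultures.

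*KCNJ3* (GIRK1, a G-protein-gated Kir) had 13.5, 25.04 and 21.5 normalized counts in the knockdown and 44.9, 33.0 and 23.7 in the control cultures, a log2 fold change of -0.76 with an adjusted p of 0.18 from edgeR. *KCNJ14* (Kir2.4) had a log2 fold change of 0.36 and no overlap. *KCNJ12* (Kir2.2) has a near-identical copy, *KCNJ18*, so its log2 fold change of -0.07 is uncertain. The 7 Kir genes summed to 24.7 to 24.96 CPM in the knockdown and 27.8 to 33.5 in the control cultures, without overlap. The K2P genes make the background leak current. All 4 had negative log2 fold changes in every alternative fit, and none was called. *KCNK1* had 475, 442 and 384 in the knockdown and 502, 517 and 411 in the control cultures; its log2 fold change was -0.13 (standard error 0.13), and *KCNK5* (TASK2), *KCNK2* (TREK1) and *KCNK6* (TWIK2) had -0.41, -0.55 and -0.60. With 1 culture left out these values ran from -0.23 to -0.05 for *KCNK1*, from -0.71 to -0.20 for *KCNK5*, from -1.07 to -0.33 for *KCNK2* and from -0.81 to -0.34 for *KCNK6*, so their size depended on single cultures.

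Among the sodium channel genes, *SCN3B* fell. The β subunits of sodium channels are single-pass membrane proteins that tune sodium channel gating and act in cell adhesion. *SCN3B* encodes β3. It had 111, 99.1 and 90.2 normalized counts in the knockdown and 150.0, 145 and 156 in the control cultures, with the tightest controls of the called genes. Its mean fell from 150.3 ± 5.91 to 100.04 ± 10.4 (SD, n = 3), or -0.58 on the log2 scale (standard error 0.16, edgeR's adjusted p = 0.044). This call was lost with the replicate block (edgeR's adjusted p = 0.088), without knockdown replicate 1, 2 or 3 (0.088, 0.16 and 0.19), without control replicate 1 or 3 (0.10 and 0.065) and without a filter (0.050). *SCN4B*, the gene of β4, had 94.5, 37.6 and 71.9 in the knockdown and 61.2, 54.4 and 48.4 in the control cultures, with knockdown values on both sides of the controls (log2 fold change 0.32, adjusted p = 0.54, edgeR).

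Of the pore genes, *SCN9A* had 824, 975 and 907 normalized counts in the knockdown and 789, 560.5 and 781 in the control cultures. The groups did not overlap, control replicate 2 being the lowest, and the log2 fold change was 0.35 (standard error 0.14, edgeR's adjusted p = 0.13). With 1 culture left out it ran from 0.20 to 0.43. *SCN8A* (Nav1.6), *SCN11A* (Nav1.9) and *SCN2A* (Nav1.2) had log2 fold changes of 0.18, 0.39 and -0.44. The groups of *SCN2A* did not overlap, and its adjusted p from edgeR was 0.35.

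Voltage-gated calcium channels gave the second gene that rose. *CACNA1H* encodes Cav3.2, a low-voltage-activated T-type channel, at chr16:1153106-1221771 on the plus strand. It had 427, 344 and 380.0 normalized counts in the knockdown and 241, 303 and 258 in the control cultures. Every knockdown culture was above every control culture, and the mean rose from 268 ± 32.3 to 384 ± 41.5 (SD, n = 3), or 0.52 on the log2 scale (standard error 0.14, edgeR's adjusted p = 0.036). The call was lost without knockdown replicate 1, 2 or 3 (adjusted p of 0.15, 0.074 and 0.12 from edgeR) and without control replicate 1 or 3 (0.12 and 0.059). It shares 121 exon bases with *TPSG1* on the opposite strand. The other T-type gene above the count minimum, *CACNA1G* (Cav3.1), had 102, 114 and 150.3 in the knockdown and 235, 206 and 145 in the control cultures. Here knockdown replicate 3 was above control replicate 3, and the log2 fold change of -0.68 had an adjusted p of 0.065 from edgeR. The 2 T-type genes thus had log2 fold changes of opposite sign, in each alternative fit too. *CACNA1G* was called lower in 4 of 14 alternatives, namely no filter (edgeR's adjusted p = 0.026), the DESeq2 Wald test (0.028), without control replicate 3 (0.017) and the GC and length correction (0.0097). The difference between the 2 genes was not tested. *CACNA1B* (the N-type Cav2.2), *CACNA1C* and *CACNA1D* (the L-type Cav1.2 and Cav1.3) had log2 fold changes of -0.29, 0.19 and -0.60 with overlapping groups.

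No auxiliary calcium channel subunit was called. *CACNA2D1* had 1214, 1346 and 1455 normalized counts in the knockdown and 1739, 1342 and 1824 in the control cultures. Control replicate 2 lay among the knockdown cultures, and the log2 fold change was -0.29 (standard error 0.12, edgeR's adjusted p = 0.16). Without control replicate 2 it was called lower (-0.41, edgeR's adjusted p = 0.0062). *CACNA2D2* and *CACNA2D3* had log2 fold changes of -0.20 and -0.15, so that all 3 α2δ genes were negative, in every alternative fit too. *CACNB3* had 395, 346 and 344 in the knockdown and 491, 501 and 361 in the control cultures (log2 fold change -0.32, adjusted p = 0.18, edgeR), with control replicate 3 among the knockdown cultures. Without that culture it was called lower (-0.45, edgeR's adjusted p = 0.040). The 4 β genes summed to 68.8 to 72.3 CPM in the knockdown and 73.8 to 82.9 in the control cultures. The γ genes *CACNG4* and *CACNG8*, known as regulators of AMPA receptors, had log2 fold changes of 0.14 and -0.30 with overlapping groups.

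**Figure D3:**
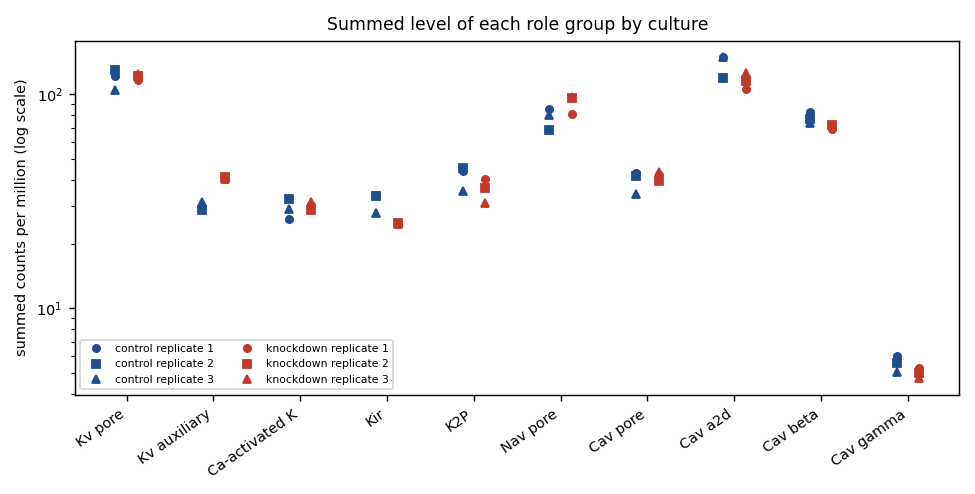
Summed level of 10 role groups in CPM, on a log scale, with a point for each culture (blue control, red knockdown, shapes for replicates). The groups do not overlap for Kv auxiliary subunits (40.4 to 41.1 in knockdown against 28.7 to 31.5 in control), Kir (24.7 to 24.96 against 27.8 to 33.5) and calcium channel β subunits (68.8 to 72.3 against 73.8 to 82.9), and they overlap for the other 7 drawn. A further group is not drawn, so these are not counts over all role groups.

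Small interfering RNAs can lower transcripts whose 3′ untranslated region pairs with bases 2 to 8 of the guide. The study lists 6 silencer sequences without saying which are small interfering RNAs or which strand is printed. Sequences 1, 2 and 3 were taken here to be the target strand of small interfering RNAs. Each then gives 7 such bases, which were searched in the direction of the transcript. The other sequences were not searched. GATTTTC, from sequence 1, was present in 8 of the 66 channel genes (12.1%) and in 17.6% of the 13460 tested genes with a 3′ untranslated region in GENCODE release 44. TATACGT, from sequence 2, was present in 3 (4.55% against 2.69%), and CTATCAC, from sequence 3, in 6 (9.09% against 5.51%). The searched regions were longer in the channel genes, with a median of 1937 bases against 1358, and the shares were not corrected for it. Of the 5 genes named above as lower, only *SCN3B* held any of them. Its windows and those of the rarest 7mer are printed 5′ to 3′ with the 7 bases in capitals (GRCh38).
*SCN3B*, chr11:123630347-123630376, minus strand: ttggctcaatctGATTTTCccattcttact
*SCN3B*, chr11:123631157-123631186, minus strand: gctgaatggtatCTATCACttatttatcct
*CACNA1B*, chr9:138122606-138122635, plus strand: ttgtcacttctaTATACGTgatgtagaaaa
*CACNA2D1*, chr7:81950135-81950164, minus strand: aaagcaaaatccTATACGTgtcctctattg
*KCNJ12*, chr17:21419279-21419308, plus strand: agatacgtgatcTATACGTgtgtgtgtgtg
The 3 genes with TATACGT had log2 fold changes of -0.29, -0.29 and -0.07, and none was called. *KCNA2*, *KCNA3*, *KCNH2* and *KCNJ11* held none of the 3 sets of letters in the annotated region used. Whether any of these matches is a site was not tested.

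**Figure D4:**
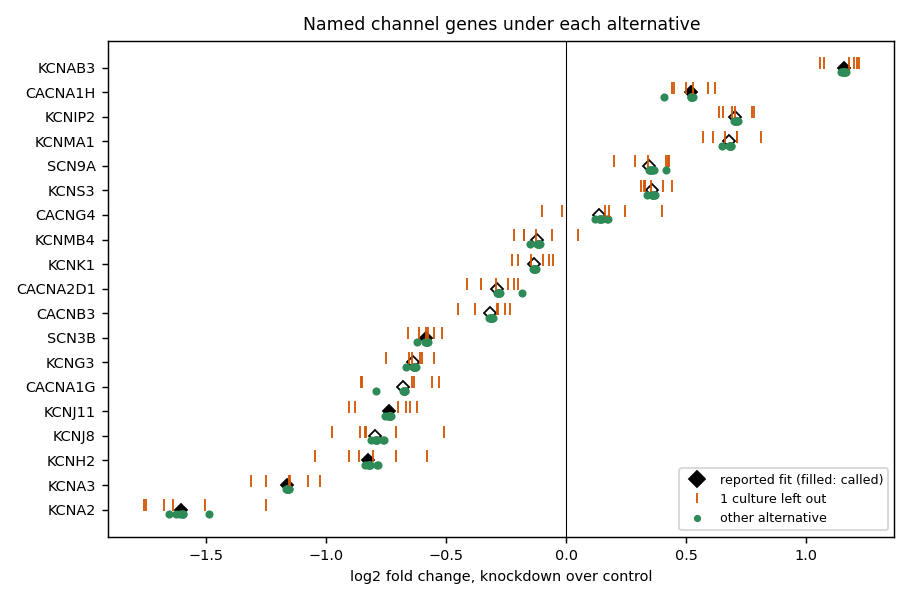
Log2 fold change of 19 named channel genes in the reported fit (diamonds, filled where called), with 1 culture left out (orange ticks) and under the other alternatives (green dots). *CACNG4* and *KCNMB4* cross 0 when certain cultures are left out, and the other genes drawn stay on 1 side. The ticks spread more than the dots for most genes, from -1.05 to -0.58 for *KCNH2* and from 1.06 to 1.22 for *KCNAB3*.

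Depth limited what could be seen. The 24 channel genes with a mean of at least 100 normalized counts had a median standard error of 0.16 on the log2 scale and held 5 of the calls. The 42 genes below that had a median of 0.29, up to 0.58 for *KCND3*, and held 3. With 3 against 3 cultures, the smallest two-sided p that an exact permutation test of 1 gene can give is 0.10. The labels describe the cultures as biological replicates, and the p values measure the spread between these cultures of 1 cell line.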

How the data were processed

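RNA-seq of 3 knockdown and 3 control HEK293 cultures was analysed from the gene counts that the authors deposited, whole numbers without normalization. The submitters' processing notes name FastQC 0.11.9, Trim Galore 0.6.6, STAR 2.7.9a, featureCounts 2.0.1 and hg38. The gene annotation, the strand setting and the handling of multi-mapping reads are not given in the sources used here. Groups and replicate numbers came from the sample labels. Knockdown replicates 1, 2 and 3 are the columns KD-1, KD-4 and KD-5. Control replicates 1, 2 and 3 are the columns NC-10, NC-11 and NC-1. What the numbers in these column names stand for is not given in the sources used here. The titles spell the line HEK393 and the other labels HEK293.

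Genes kept by filterByExpr (14877, with all 66 channel genes) were scaled by TMM, and the groups were compared by the robust quasi-likelihood F test of edgeR 4.0.16 in R 4.3.3, without a block. The Benjamini-Hochberg adjustment ran over all genes tested, and 0.05 was the threshold for a call. A normalized count is the count scaled to the mean effective library size. Levels per kilobase (RPKM) were computed here and divide by the union of exons in GENCODE release 44, which matched 23161 rows by symbol and 1362 by synonym, while 1962 had no match. On simulated counts the fit was tested before use.

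Alternatives covered the scaling (size factors of DESeq2, library sizes alone), the filter (none, or 10 counts in each culture), a block for the replicate number, the test (Wald test of DESeq2 1.42.0, limma-voom in limma 3.58.1), each culture left out, and a loess correction for GC content and transcript length (span 0.3), which was added later. Results for 2 of the channel genes are not reported here, though counts over all channel genes include them. Named genes were otherwise all called channel genes, the gene of highest level in each role group, the 5 uncalled genes of smallest p, *KCNJ8*, and up to 3 called genes of each of 2 other lists. Further channel genes are named to complete their families and were chosen after their values were seen. The channel genes and all lists were chosen with earlier results of these data known. Protein sequences were not used here, so the planned search for the potassium filter motif was not run.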

Additional observations from a re-analysis of the deposited data

How the results depend on the processing

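Without 1 culture, the channel genes called lower numbered 1 to 8 in place of 6 and those called higher 1 to 2 in place of 2, calls over all genes numbered 517 to 2509 in place of 1494, related cation channels 0 to 3 in place of 2, and channel partners 0 to 4 in place of 3. With 1 culture left out, the group of 2 was tested with the spread estimated over all 5 cultures. The correction for GC content and length, added after earlier results were known, called 2875 genes, with 9 channel genes lower and 4 higher. Those gained were *CACNA1G*, *KCNG3* and *KCNJ8* as lower, and *KCNIP2* and *SCN9A* as higher. The cause of these shifts was not tested. With DESeq2's size factors, library sizes, no filter, the stricter filter, the DESeq2 Wald test and limma-voom the channel genes called lower were 6, 4, 7, 5, 7 and 4, and 2 were higher each time. In that order, 12.1%, 9.09%, 13.6%, 11.5%, 15.8% and 9.09% of channel genes with an adjusted p were called. The shares over all genes with an adjusted p were 10%, 10.2%, 8.17%, 10.6%, 12.9% and 9.85%. Under the stricter filter *KCNA2* was not tested, and DESeq2 gave it no adjusted p. With the replicate number as a replicate block, 6 channel genes were lower and 2 higher, *KCNJ8* entering and *SCN3B* leaving, and 1333 genes were called. Deviations from the group mean, over genes, correlated at -0.20, -0.11 and -0.04 between cultures with the same replicate number. The deviations of 3 cultures from their own mean depend on each other, so these values cannot decide whether the cultures were paired. The sign of *CACNG4* changed when a culture was left out (range -0.10 to 0.40, and -0.02 without knockdown replicate 3), as did that of *KCNMB4* (range -0.22 to 0.048). Levels from the control median in place of the mean of all cultures were 12.6 RPKM for *CACNA2D1*, 4.56 for *CACNB3* and 2.997 for *KCNS3*, each over 1 SD from the mean. Of all 66 channel genes, 14 changed sign in at least 1 alternative, 0 of them called in the reported fit. Among these were *KCNH1*, *KCNH3*, *KCNIP3*, *KCNN1*, *KCNJ12*, *SCN8A* and *CACNA1C*. Over the genes named by the rule and their alternatives with an adjusted p, 279 values kept direction and side of the threshold, 52 lost the call, 14 gained it and 3 changed sign.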

Other observations

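Cation channels outside the 3 families, and proteins that regulate channels, were described from 2 further lists. Of 45 related cation channel genes 27 were tested, of which 2 were lower and 0 higher (7.41%, against 10% of all genes). In this list 4 of the 27 had an unadjusted p under 0.05 from edgeR, against 3996 of all 14877 genes tested. *TRPV4*, a calcium-permeable channel gated by osmotic swelling and warmth, had 28.9, 38.6 and 35.4 normalized counts in the knockdown cultures and 99.997, 93.7 and 61.7 in the control cultures. It was lower without overlap (log2 fold change -1.31, standard error 0.25, edgeR's adjusted p = 0.0086). *TRPC1*, a subunit of receptor-operated channels, had 184, 225 and 227 against 348, 327 and 288, also without overlap (-0.60, standard error 0.14, edgeR's adjusted p = 0.022). The call of *TRPV4* was lost without knockdown replicate 1 (edgeR's adjusted p = 0.052), and that of *TRPC1* without knockdown replicate 1, 2 or 3 (0.10, 0.073 and 0.073) or control replicate 1 (0.083). The median log2 fold change of the list was -0.00094.

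Of 36 channel partner genes 23 were tested, with 3 lower and 0 higher (13%, against 10% of all genes). An unadjusted p under 0.05 from edgeR was found for 4 of the 23, against 3996 of all 14877 genes tested. *SGK1*, a kinase that raises the surface level of several channels, had 113, 74.1 and 76.2 normalized counts in the knockdown and 148, 168 and 164 in the control cultures (log2 fold change -0.86, edgeR's adjusted p = 0.019). *GEM*, a small GTPase that binds calcium channel β subunits and inhibits the channel, had 38.6, 33.4 and 41.9 against 92.9, 89.3 and 51.4 (-1.04, 0.031). *CALM2*, a calmodulin gene, had 5610, 5620 and 5341 against 6854, 6934 and 6800 (-0.31, 0.032). None of the 3 overlapped between groups. Without knockdown replicate 2 or 3 or control replicate 1 none of them was called, with adjusted p from edgeR of 0.0997, 0.098 and 0.052 for *SGK1*, 0.13, 0.088 and 0.11 for *GEM*, and 0.14, 0.18 and 0.079 for *CALM2*. *GEM* also lost its call without knockdown replicate 1 (0.11) and with limma-voom (0.051), and *CALM2* without knockdown replicate 1 (0.11) and with the replicate block (0.13). The median log2 fold change of the list was 0.10.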
